A study of Mus musculus with 12 samples.

Results

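Described here are 10 hormones and markers of enteroendocrine cells, the hormone-producing cells of the gut epithelium, in mouse cecum after cauterization. They were chosen by name (Chga, Chgb, Pyy, Gcg, Cck, Insl5, Sst, Nts, Tph1 and Neurod1) and found by the gene symbols of the scanner output, which makes them 10 of the 37074 genes on the array. They were read by 13 probes, with 2 for Gcg, 3 for Tph1 and 1 for each of the other 8 genes. RNA from the cecum of C57BL/6 mice was hybridised to 1-colour Agilent arrays, on which the brightness of a spot measures the amount of a transcript, with 3 arrays in each of 4 groups. The control group had a sham operation and was taken at 0 h, according to the methods. The other groups were taken 3, 12 or 72 h after the cecum was cauterized with forceps. All 12 samples carry the label male, and age was not given in the sources used here. Sham tissue was taken at 1 time, so effects of the operation, of the hours after it and of the burn itself cannot be told apart.

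Saturated spots numbered 0, and 60.2% to 65.2% of an array's probes passed the scanner's test for signal well above background. The number of arrays in each group is small, which limits the precision. Across probes, which are not independent replicates, arrays of a group had correlations between 0.985 and 0.992. The sham and 3 h arrays and replicates 1 and 2 of 12 h lay on slide 1, and replicate 3 of 12 h and the 72 h arrays lay on slide 2. A difference between 72 h and sham can therefore be separated from the slide through 1 array of 12 h. Of 14 epithelial markers, 14 were above background on at least 1 array, and the intestinal transcription factors Cdx1 and Cdx2 were above background on 12 of 12 arrays. The sex label was not borne out by the arrays. Xist was above background on 12 of 12 arrays, at log2 levels from -0.77 to 0.00, while Ddx3y and Eif2s3y were above background on 0 arrays and Uty on 1, replicate 3 of sham. For Kdm5d, 1 of 6 probes was above background on 12 arrays. The mice are therefore called by group and not by sex.

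Enteroendocrine cells are scattered among the absorptive and goblet cells of the gut lining and release peptide hormones and serotonin from dense-core granules in answer to nutrients, microbial products and irritants. In the large intestine, L cells make the glucagon gene's peptides, peptide YY and, in the distal gut, insulin-like peptide 5, while enterochromaffin cells make serotonin and D cells make somatostatin. Several of the same peptides are also made by enteric neurons. RNA of a whole tissue was measured, so fewer cells of a type and less RNA per cell cannot be told apart.

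A level here is log2 of the background-corrected intensity minus the 75th percentile of the array, so that 0 is that percentile, and a change is a difference of group means on this log2 scale. Each gene was represented by its brightest probe. A gene was called where limma gave an adjusted p below 0.05, adjusted over all 56605 probes of the array, with more than a 2-fold difference.

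At 3 h and 12 h none of the hormones and markers was called by limma on its brightest probe, but Insl5 was called at 12 h with a slide block. At 72 h Nts was the 1 gene called, lower, which did not hold with a slide block. The 3 comparisons share the sham arrays. At 3 h, limma called 0 of 10 higher and 0 lower, beside 3.26% and 4.11% of all genes. At an unadjusted p below 0.05 there were 3, beside 34.0% of all genes, and the methods' t-test called 0. That test called 0 of all 37074 genes too at 3, 12 and 72 h, so its 0 says nothing about these genes. Adjusted p was below 0.05 at any fold for 2 genes, Cck and Tph1, both higher, beside 9.0% of all genes higher and 9.70% lower. All 3 cauterized arrays lay above all 3 sham arrays for 3 genes (Cck, Tph1 and Neurod1), against 28.8% of all genes, and below them for 0, against 17.8%. The median change of the 10 genes was 0.24, beside 0.08 over all genes. It was positive in 10 of 10 genes, but in 7 with quantile normalization, in 7 when the percentile came from probes above background alone, in 9 with normexp background correction and in 3 when each array was centred on the epithelial markers. The median was 0.12 with the percentile from probes above background, 0.14 when the probes of a gene were averaged and -0.19 with epithelial centring.

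At 12 h, limma called 0 higher and 0 lower, beside 4.10% and 4.96% of all genes. At an unadjusted p below 0.05 there were 3, beside 32.4% of all genes, and the methods' t-test called 0. Insl5 was the 1 gene with an adjusted p below 0.05 at any fold, on the lower side, where 12.2% of all genes lay, with 9.0% on the higher side. With a slide block limma called 1 gene, Insl5, lower at -1.23 (limma adjusted p = 0.00658). That fit called 1585 higher and 1958 lower of all 37074 genes. The 12 h arrays lay wholly below sham for 6 genes (Chga, Chgb, Pyy, Gcg, Insl5 and Sst), against 20.8% of all genes, and wholly above it for 1, Cck, against 15.3%. The median change was -0.34, beside -0.01 over all genes, and within slide 1 it was -0.26. It was negative in 8 of 10 genes, and in 7 with quantile normalization, where Tph1 turned positive.

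At 72 h, limma called 1 of 10 lower, Nts, and 0 higher, beside 4.30% and 4.55% of all genes. With a slide block the call of Nts was lost and Insl5 was called in its place. Only replicate 3 of 12 h ties the slides together in that fit. For Insl5 it stood at -3.21, against -4.02 and -4.01 for the 12 h arrays of slide 1. At an unadjusted p below 0.05 there were 4 genes, beside 32.8% of all genes, and the methods' t-test called 0. Adjusted p was below 0.05 at any fold for 3 genes, all lower (Chga, Insl5 and Nts), beside 12.7% of all genes lower and 7.97% higher. All 72 h arrays lay below all sham arrays for 4 genes (Chga, Gcg, Insl5 and Nts), against 24.9% of all genes, and above them for 0, against 12.7%. The median change was -0.17, beside -0.14 over all genes. It ranged from -0.33 to -0.05 with an array left out, and was -0.10 with a slide block and -0.34 when the probes of a gene were averaged. It was negative in 8 of 10 genes, in 7 with quantile normalization, in 9 with normexp and in 4 when centred on the epithelial markers, where the median was 0.34.

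**Figure D1:**
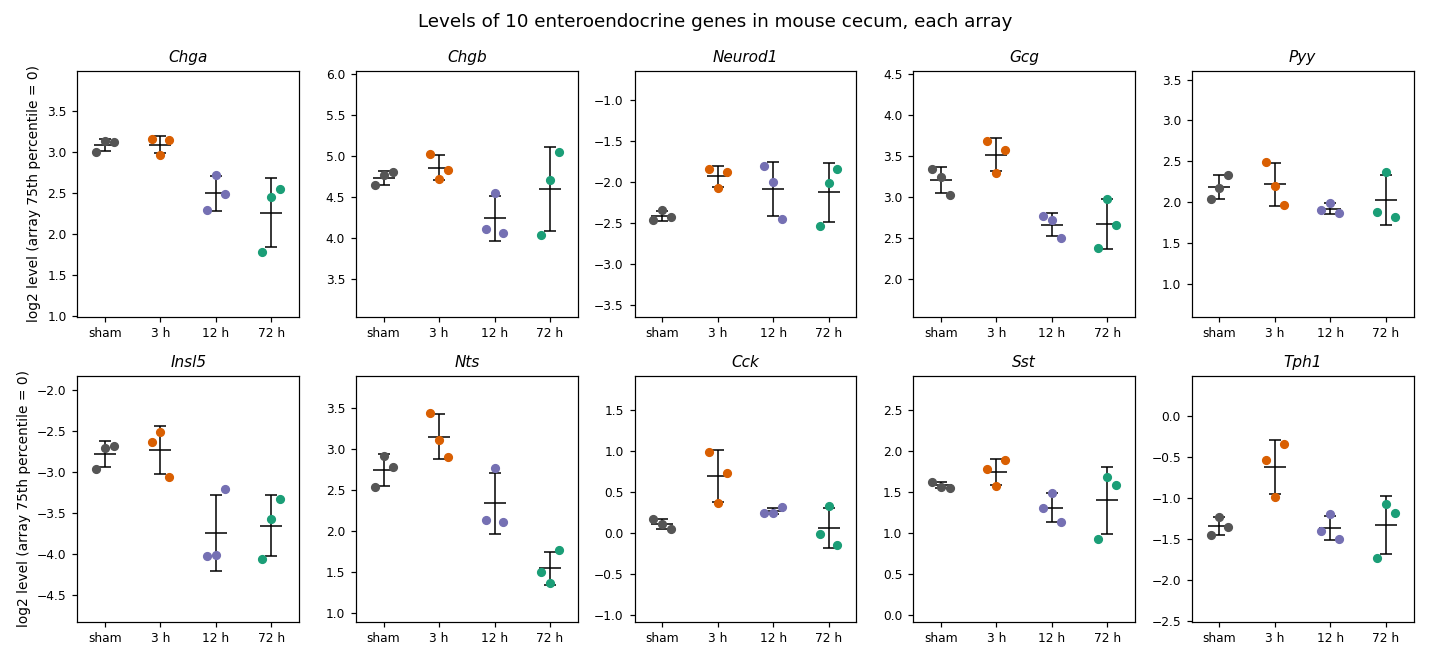
Level of each of the 10 genes on each of the 12 arrays, as log2 intensity relative to the array's 75th percentile, for sham and for 3, 12 and 72 h after cauterization. Points are arrays, bars are the group mean with 1 SD, each panel spans the same number of log2 units but has its own zero point, and the Nts points at 72 h lie between 1.37 and 1.76, below all 9 others of that gene.

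Chromogranin A and chromogranin B are acidic proteins that help to form the dense-core granules of endocrine cells and neurons, and are the most used general markers of enteroendocrine cells. Chga stood at 3.01, 3.14 and 3.12 in sham and at 3.16, 2.97 and 3.15 at 3 h. It stood at 2.29, 2.71 and 2.49 at 12 h and at 1.78, 2.45 and 2.55 at 72 h. The sham and 3 h arrays lay together, and every array of 12 and 72 h lay below them. The change of Chga was 0.00 at 3 h and -0.59 at 12 h (SE 0.19, limma adjusted p = 0.0548). Its change at 72 h, -0.83, had a limma adjusted p of 0.0142 and is 1.78-fold lower, short of the fold needed for a call. With slide as a block the 72 h change was -0.82 at a limma adjusted p of 0.265, where the adjusted p ranged from 0.00202 to 0.265 over the alternatives. Centred on the epithelial markers it was -0.32 (limma adjusted p = 0.147). Chgb stood at 4.64, 4.76 and 4.80 in sham, at 5.02, 4.72 and 4.83 at 3 h, at 4.11, 4.55 and 4.05 at 12 h and at 4.03, 4.70 and 5.05 at 72 h. The 12 h arrays of Chgb lay below sham, while the 72 h arrays were spread on both sides of it. Its changes of 0.12, -0.50 and -0.14 at 3, 12 and 72 h (SE 0.24) did not pass the limma test, with adjusted p values of 0.744, 0.177 and 0.708. The sign of Chgb at 72 h did not hold, with 0.14 under a slide block and 0.37 with epithelial centring. That change ran from -0.37 to 0.14 with an array left out.

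Neurod1 is a transcription factor that acts late in the making of several enteroendocrine cell types. It stood at -2.47, -2.34 and -2.43 in sham, at -1.84, -2.08 and -1.88 at 3 h, at -1.81, -1.997 and -2.45 at 12 h and at -2.53, -2.01 and -1.84 at 72 h. The 3 h arrays lay above sham, and those of 12 and 72 h overlapped it. The changes were 0.48, 0.33 and 0.29 (SE 0.20), with limma adjusted p values of 0.126, 0.303 and 0.366. The 72 h change of Neurod1 ran from 0.14 to 0.49 with an array left out and from 0.03 to 0.83 over the alternatives. Within slide 1 the 12 h arrays differed from sham by 0.51, and within slide 2 the 72 h arrays differed from the 12 h array by 0.32.

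Gcg encodes proglucagon, from which L cells cut glucagon-like peptides that act on insulin release, appetite and mucosal growth. Its brightest probe stood at 3.34, 3.24 and 3.02 in sham and at 3.68, 3.29 and 3.57 at 3 h. It stood at 2.77, 2.72 and 2.49 at 12 h and at 2.37, 2.98 and 2.66 at 72 h. The later arrays lay below every sham and 3 h array. Against sham the changes were 0.31, -0.54 and -0.53 (SE 0.17), with limma adjusted p values of 0.231, 0.0509 and 0.0556. The 72 h change was -0.29 with a slide block (limma adjusted p = 0.634) and -0.02 with epithelial centring (limma adjusted p = 0.935). From 3 h to 12 h Gcg differed by -0.85 (limma adjusted p = 0.0168), 1.80-fold lower. With a slide block this was -0.77 at a limma adjusted p of 0.0599, and with epithelial centring the adjusted p was 0.0737 (range over the alternatives 0.00524 to 0.325). The other Gcg probe, at mm9 chr2:62318657-62318716, stood at -2.70, -2.49 and -2.59 in sham and at -2.82, -2.59 and -2.64 at 3 h. At 12 h it stood at -2.80, -2.69 and -3.16, and at 72 h at -3.29, -3.29 and -3.20. At 12 h, replicates 1 and 2, on slide 1, lay at the lower edge of sham or just below it. Replicate 3, on slide 2, lay near the 72 h arrays. All 72 h arrays lay below all other arrays on this probe. Its change at 72 h was -0.67 (SE 0.13, limma adjusted p = 0.00693), 1.59-fold lower, and -0.25 in the fit with a slide block, at a limma adjusted p of 0.458 (range over the alternatives 0.000299 to 0.526).

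Pyy encodes peptide YY, a peptide of L cells that slows gut transit and curbs appetite. It stood at 2.04, 2.18 and 2.33 in sham, at 2.49, 2.20 and 1.97 at 3 h, at 1.90, 1.995 and 1.87 at 12 h and at 1.88, 2.38 and 1.83 at 72 h. The 12 h arrays lay just below sham, and replicate 2 of 72 h lay above it. Its changes of 0.03, -0.26 and -0.16 (SE 0.18) had limma adjusted p values of 0.909, 0.354 and 0.571.

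Insl5 encodes insulin-like peptide 5, a relaxin-family hormone of colonic L cells. It stood at -2.96, -2.70 and -2.68 in sham and at -2.63, -2.51 and -3.06 at 3 h. It stood at -4.02, -4.01 and -3.21 at 12 h and at -4.06, -3.57 and -3.33 at 72 h. Every later array lay below every sham and 3 h array, with replicate 3 of 12 h, the one on slide 2, nearest to them. The change was 0.05 at 3 h and -0.97 at 12 h (SE 0.26, limma adjusted p = 0.0252), 1.95-fold lower and just short of a call. At 72 h it was -0.87 (limma adjusted p = 0.0404), 1.83-fold lower, and ran from -1.68 to -0.36 over the alternatives. Within slide 1, and with slide as a block, the 12 h change was -1.23, which was called at a limma adjusted p of 0.00658, where the alternatives ranged from 0.00658 to 0.245. Leaving out replicate 3 of 12 h gives that same comparison within slide 1. The 12 h change was called without replicate 1 of sham, at -1.06. At 72 h it was called under the slide block, at -1.68 (limma adjusted p = 0.0483, range over the alternatives 0.00104 to 0.331), and without replicate 3 of 72 h, at -1.04. The adjusted p at 72 h passed 0.05 without any 1 of the sham arrays, replicate 1 of 3 h, or replicate 1 or 2 of 72 h. After normexp background correction the changes were smaller, -0.31 at 12 h (limma adjusted p = 0.0144) and -0.42 in the 72 h arrays (limma adjusted p = 0.00104).

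Nts encodes neurotensin, made by N cells and by enteric neurons, which acts on gut motility, secretion and fat uptake. It stood at 2.53, 2.92 and 2.78 in sham and at 3.45, 3.11 and 2.90 at 3 h. At 12 h it stood at 2.14, 2.77 and 2.11, and at 72 h at 1.501, 1.37 and 1.76. The 72 h arrays lay apart below all 9 others, while the 3 h and 12 h arrays each overlapped sham. Against sham the change was 0.41 at 3 h and -0.40 at 12 h (SE 0.21), with limma adjusted p values of 0.200 and 0.230. At 72 h Nts fell by 1.20 on the log2 scale (SE 0.21, limma adjusted p = 0.00375), which is 2.30-fold lower, with 3 of 3 arrays below sham. The call held when each array was left out in turn, with changes from -1.31 to -1.11. With slide as a block the change was -0.85 and was not called (limma adjusted p = 0.260, range over the alternatives 0.000621 to 0.260). Centred on the epithelial markers it was -0.69, under the fold for a call, and by the methods' t-test the adjusted p was 0.179. Within slide 1 the 12 h arrays differed from sham by -0.29, and within slide 2 the 72 h arrays differed from the 12 h array by -0.57.

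Cck encodes cholecystokinin, the hormone of I cells that drives gallbladder emptying and pancreatic secretion, and a peptide of neurons. It stood at 0.17, 0.11 and 0.04 in sham and at 0.99, 0.36 and 0.73 at 3 h. At 12 h it stood at 0.24, 0.24 and 0.31, and at 72 h at -0.01, 0.33 and -0.14. The 3 h arrays were spread widely above sham, the 12 h arrays lay closely together just above it, and the 72 h arrays overlapped it. The change at 3 h was 0.59 (SE 0.17, limma adjusted p = 0.0356), 1.503-fold higher and not called. It was followed by 0.16 at 12 h and -0.05 at 72 h. The adjusted p at 3 h passed 0.05 without any 1 of the sham arrays, replicate 1 or 3 of 3 h, or replicate 2 of 12 h. The limma adjusted p was 0.0653 with replicate number as a block and 0.0759 when the percentile came from probes above background alone. At 3 h the change was 0.44 without replicate 1 of that time (limma adjusted p = 0.0996) and 0.16 when centred on the epithelial markers (limma adjusted p = 0.598, range over the alternatives 0.0137 to 0.598). The probe of Cck was spotted many times, with 7 to 10 spots kept on each array, and the SD of log2 intensity between spots of an array was 0.0378 to 0.0830.

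Sst encodes somatostatin, which D cells and enteric neurons release and which restrains the secretion of other hormones. It stood at 1.62, 1.57 and 1.55 in sham, at 1.78, 1.57 and 1.89 at 3 h, at 1.30, 1.49 and 1.13 at 12 h and at 0.93, 1.68 and 1.58 at 72 h. The 12 h arrays lay below sham, and at 72 h replicate 1 lay far below it, replicate 3 within it and replicate 2 above it. The changes were 0.17, -0.27 and -0.18 (SE 0.19), with limma adjusted p values of 0.567, 0.376 and 0.545.

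Tph1 encodes tryptophan hydroxylase 1, the enzyme that sets the pace of serotonin synthesis in enterochromaffin cells and is also found in mast cells. Its brightest probe stood at -1.45, -1.24 and -1.35 in sham and at -0.54, -0.99 and -0.35 at 3 h. At 12 h it stood at -1.41, -1.20 and -1.499, and at 72 h at -1.73, -1.08 and -1.19. All 3 h arrays lay above all sham arrays, and the later arrays overlapped sham. The change at 3 h was 0.72 (SE 0.20, limma adjusted p = 0.0339), 1.65-fold higher and not called, and 0.29 when centred on the epithelial markers (limma adjusted p = 0.218, range over the alternatives 0.0116 to 0.325). The adjusted p passed 0.05 without any 1 of the sham arrays or replicate 1 or 3 of 3 h. A further probe of Tph1, A_55_P2934423, stood at -4.73, -4.51 and -4.45 in sham and at -3.18, -3.66 and -3.57 at 3 h. At 12 h it stood at -4.58, -4.26 and -4.71, and at 72 h at -5.58, -5.19 and -5.17, where it was not well above background on any array. This probe separated 3 h on the high side and 72 h on the low side. At 3 h it rose by 1.09 (SE 0.18, limma adjusted p = 0.00266), 2.13-fold, and was called (range of adjusted p over the alternatives 0.00111 to 0.267). The call was lost without replicate 1 of 3 h, at 0.95, with the percentile over probes above background, at 0.97, with normexp, at 0.28, with epithelial centring, at 0.66, and by the methods' t-test (adjusted p = 0.267). At 72 h it was at least 1.49-fold lower than sham on this scale (limma adjusted p = 0.0154). That bound compares the sham mean with the dimmest detectable signal of the 72 h arrays. It need not hold with another scaling or a slide block. The fitted change was -0.46 with a slide block (limma adjusted p = 0.427, range over the alternatives 0.000704 to 0.427) and -0.24 with epithelial centring, and the adjusted p passed 0.05 without replicate 2 of sham or replicate 1 of 72 h. The remaining probe of Tph1 was not well above background on any array.

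**Figure D2:**
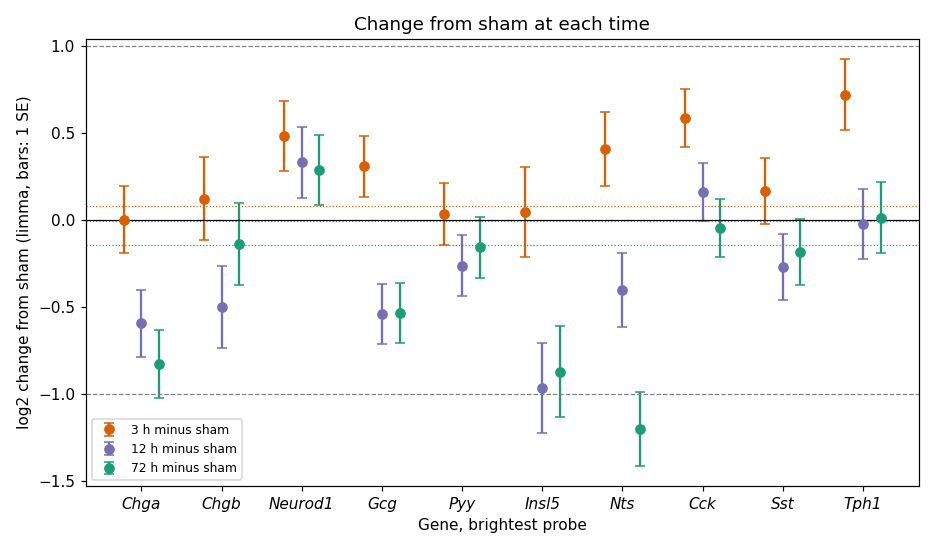
Change of each gene from sham at 3, 12 and 72 h in log2 units, as fitted by limma, with bars of 1 SE. Dashed lines mark the fold change of 2 needed for a call, dotted lines the median change over all genes at each time, and the change of Nts at 72 h, -1.20, is the one point of the brightest probes beyond a dashed line.

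The times were also compared with each other, since a change that passes at one time and not at another need not differ between them. From 3 h to 12 h, limma called 1 of 10 lower, Insl5, and 0 higher, beside 1.56% and 1.89% of all genes. At an unadjusted p below 0.05 there were 8 genes, beside 24.1% of all genes, and the methods' t-test called 0, beside 1 of all genes. Insl5 fell by 1.01 (SE 0.26, limma adjusted p = 0.0402), 2.02-fold. This call was lost without any 1 of 8 arrays, among them each sham array, and the change ranged from -1.28 to -0.87 with an array left out. Adjusted p was below 0.05 at any fold for 3 genes, all lower (Gcg, Insl5 and Nts, the last at -0.81 with a limma adjusted p of 0.0436), beside 5.15% of all genes lower and 3.82% higher. With a slide block, Gcg and Nts no longer passed at any fold (limma adjusted p = 0.0599 and 0.131), and Insl5 was called at -1.28. All 10 genes were lower at 12 h than at 3 h, with a median of -0.61 beside -0.12 over all genes, and Neurod1 turned positive when centred on the epithelial markers and with a slide block, which equals leaving out replicate 3 of 12 h.

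From 12 h to 72 h, limma called 0 higher and 0 lower, beside 4.33% and 3.19% of all genes. At an unadjusted p below 0.05 there was 1, beside 32.3% of all genes, and the methods' t-test called 0, as over all genes. Nts, at -0.80 (limma adjusted p = 0.0281), was the 1 gene that passed at any fold, on the lower side, with 9.79% of all genes lower and 8.75% higher. With a slide block it did not pass (-0.57, limma adjusted p = 0.293, range over the alternatives 0.00815 to 0.626). The median was 0.02, beside -0.14 over all genes, and within slide 2 it was 0.16. Of the 10 genes 6 were higher at 72 h than at 12 h, but 5 with quantile normalization, 4 with normexp and 9 with epithelial centring. From 3 h to 72 h, limma called 1 lower, Nts, and 0 higher, beside 5.51% and 6.19% of all genes. At an unadjusted p below 0.05 there were 6, beside 49.1% of all genes. Nts fell by 1.61 (SE 0.21, limma adjusted p = 0.000526), 3.05-fold, and by 1.26 with slide as a block, where it was not called (limma adjusted p = 0.0905, range over the alternatives 6.9e-05 to 0.0908). Insl5 was called in its place under that block, at -1.73, and beside Nts without replicate 3 of 3 h or replicate 3 of 72 h, at -1.08 each. Adjusted p was below 0.05 at any fold for 6 genes, all lower (Chga, Gcg, Cck, Insl5, Nts and Tph1), beside 26.8% of all genes lower and 11.8% higher. Those besides Nts were Insl5 at -0.92, Gcg at -0.84, Chga at -0.83, Tph1 at -0.71 and Cck at -0.64. All 3 h arrays lie on slide 1 and all 72 h arrays on slide 2, and with a slide block Insl5 alone passed among the brightest probes. The limma adjusted p was then 0.191 for Chga, 0.262 for Gcg, 0.188 for Cck and 0.428 for Tph1. The change of Chga was -0.82 with that block, near its -0.83 without it, and that of Gcg was -0.59, against -0.84. The median of the 10 genes was -0.67, beside -0.26 over all genes, and all 10 were lower, against 9 with quantile normalization and 1 with epithelial centring. On the Tph1 probe A_55_P2934423, the level fell by 1.04 from 3 h to 12 h (SE 0.18, limma adjusted p = 0.00819, range over the alternatives 0.00191 to 0.354). This call was lost with a slide block, which equals leaving out replicate 3 of 12 h, at -0.95, without replicate 1 of 3 h at -0.90, with the percentile over probes above background at -0.99, with normexp at -0.33, with epithelial centring at -0.78 and by the methods' t-test. On the same probe 72 h was at least 3.16-fold lower than 3 h (limma adjusted p = 0.000123, range over the alternatives 2.3e-05 to 0.0902), on this scale. The fitted change was smaller, and no longer called, with normexp at -0.57 and with epithelial centring at -0.90, and the call was also lost by the methods' t-test. With a slide block it was kept at a limma adjusted p of 0.0381.

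**Figure D3:**
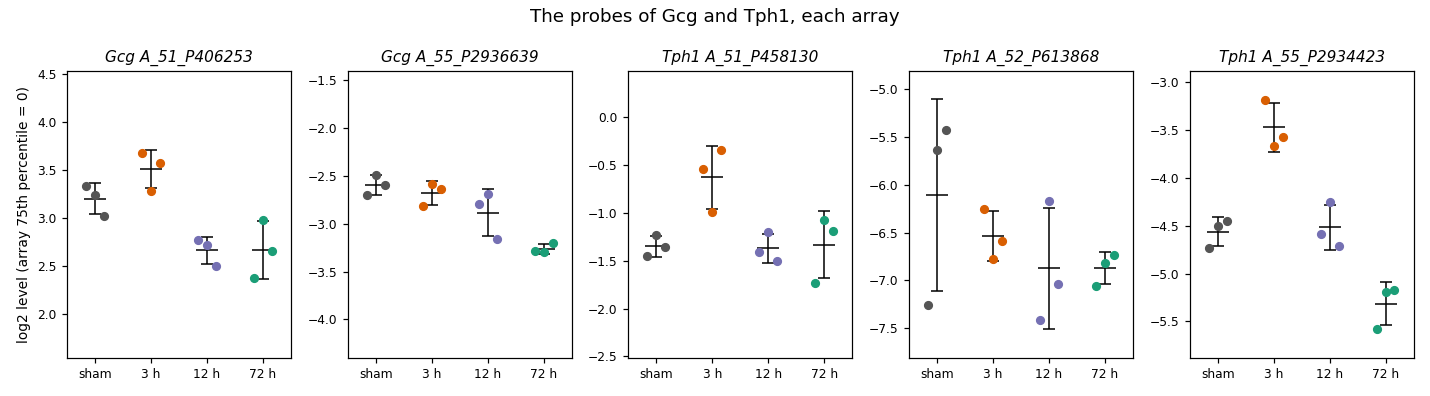
Level on each array of the 2 probes of Gcg and the 3 probes of Tph1, in log2 units relative to the array's 75th percentile. Points are arrays and bars are the group mean with 1 SD, panels span the same number of log2 units but have their own zero point, probe A_52_P613868 was not well above background on any array, and probe A_55_P2934423 was highest at 3 h, from -3.66 to -3.18.

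The probes of Nts, Insl5 and Pyy and the Tph1 probe A_55_P2934423, which is not the brightest of that gene, are printed 5' to 3', since a probe reads only its own stretch of a transcript. Capitals mark codons for paired basic residues in Nts and Pyy, and codons for cysteine, which hold the chains of relaxin-family hormones together, in Insl5. None are marked in Tph1. In mm9, on the minus strand, they lie at chr10:101944967-101945026 (Nts), chr4:102690720-102690779 (Insl5), chr11:101968311-101968370 (Pyy) and chr7:53917441-53917500 (Tph1), and exons were not assigned.
Nts: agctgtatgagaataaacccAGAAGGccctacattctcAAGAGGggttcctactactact
Insl5: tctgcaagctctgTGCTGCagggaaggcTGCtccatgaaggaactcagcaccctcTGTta
Pyy: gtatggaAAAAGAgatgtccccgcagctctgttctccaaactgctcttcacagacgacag
Tph1: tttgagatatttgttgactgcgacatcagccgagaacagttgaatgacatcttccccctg
The probe of Nts covers 2 pairs of basic residues, the first of them inside neurotensin itself and the other just past its end, where prohormone convertases cut. That of Pyy covers 1, and that of Insl5 holds 4 cysteine codons.

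Likeness between genes was measured as the mean absolute difference over the 12 arrays between levels centred on their own mean, among 20790 genes above background on all arrays. The genes nearest to Chga were Ihh, Ndufs7 and Mipep, at 0.10 each, against a median of 0.38 over all candidates. Nearest to Nts were Bpnt1, Ttc39b and Apoo, at 0.14 to 0.15 against a median of 0.56, and nearest to Insl5 were Faah, Dlat and Ndrg2, at 0.19 against 0.49. Muc2, the main gel-forming mucin of goblet cells, was among the 5 genes nearest to Pyy, at 0.08 against 0.29. Nearest to Gcg were Trim36 and Grhl2, at 0.08 against 0.39. Among the hormones and markers themselves, Sst ranked 5 in nearness to Chgb, at 0.14, and Chgb ranked 99 in nearness to Sst. Sst ranked 21 for Tph1, at 0.16, and Chga ranked 27 for Insl5, at 0.24. Ranks 5, 21 and 27 are the lowest among the 10 genes, and the others ran from 85 to 17745 among the 20790 genes. No cutoff for nearness was set, and these ranks were not tested.

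Because Sst was among the 5 genes nearest to Chgb, their promoters are shown. The 250 bases before the start of each gene come from RefSeq (GRCm38.p6), chr2:132781392-132781641 on the plus strand for Chgb and chr16:23890845-23891094 on the minus strand for Sst. Promoters of all 10 genes were matched, 13 in number, and searched over 300 bases, of which the last 50 lie past the start and are not printed, on both strands for TGACGTCA, the palindrome known as the cAMP response element, for TATAAA and for CANNTG, the E-box that factors such as Neurod1 bind. Capitals mark TGACGTCA.
Chgb: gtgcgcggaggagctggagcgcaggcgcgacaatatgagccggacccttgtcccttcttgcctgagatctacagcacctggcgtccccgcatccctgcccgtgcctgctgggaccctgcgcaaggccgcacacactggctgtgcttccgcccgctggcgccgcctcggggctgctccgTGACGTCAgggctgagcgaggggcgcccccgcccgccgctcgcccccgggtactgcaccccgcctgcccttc
Sst: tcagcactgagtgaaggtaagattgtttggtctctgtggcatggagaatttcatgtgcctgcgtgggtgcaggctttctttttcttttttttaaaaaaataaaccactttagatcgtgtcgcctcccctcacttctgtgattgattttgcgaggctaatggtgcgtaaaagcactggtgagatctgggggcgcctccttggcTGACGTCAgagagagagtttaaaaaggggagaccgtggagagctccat
The palindrome begins 72 bases before the start of Chgb and 48 bases before that of Sst, and 2 of the 13 windows held it, beside 1.79% of 32851 promoters searched over 300 bases. TATAAA was held by 4 of the 13 windows, before the start of Gcg and Insl5 and 5 bases past that of Chga, beside 13.6%, and CANNTG by 12 of 13, beside 72.3%. A match describes the letters of these windows and is no evidence that a factor binds them.

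Further genes of the enteroendocrine pathway were taken as lists, and their counts can be read against the shares of all genes called at each time. Of 14 transcription factors of the lineage, 1 was called higher at 3, 12 and 72 h, and 0, 2 and 0 were called lower, with median changes of 0.02, -0.42 and 0.02. The higher one was Pax6, which drives the glucagon gene, with changes of 1.76, 3.55 and 2.57 on its brightest probe. Of its 5 other probes, A_51_P489935 was above background on 2 arrays of 3 h and on 0 arrays of the other groups, and 4 were above background on 0 arrays. On A_51_P489935 the 3 h mean was at least 1.97-fold above sham (limma adjusted p = 0.0467), and the rises of Pax6 at 12 and 72 h rest on 1 probe. The 2 lower at 12 h, Isl1 and Nkx2-2, were above background on 0 arrays of 12 h and on 0 and 1 arrays of sham, so no fold is given. Of 8 other gut hormones, 2 were called higher at 3 h, Iapp at 1.59 and Tac1 at 1.20, 0 were called lower at that time, and 0 were called at 12 and 72 h, where medians were 0.53 and -0.09 after 0.31 at 3 h.

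Of 21 genes of prohormone processing and secretory granules, 1, 1 and 2 were called higher and 1, 2 and 2 lower at 3, 12 and 72 h, with medians of -0.21, -0.46 and -0.33. Ddc, which makes serotonin from the product of Tph1, fell by 1.49 at 12 h and by 1.47 at 72 h. Vgf, a granin-like peptide precursor, rose by 1.65, 1.69 and 1.04 on its brightest probe, while its other probe changed by 0.46, 0.18 and -0.53 and was not called. Rab3b, a small GTPase of secretory vesicles, fell by 1.24 at 72 h, when Ptprn, a granule membrane protein, rose by 1.11. Of 13 sensors, 1, 1 and 2 were called higher and 0, 0 and 1 lower, with medians of 0.22, 0.19 and -0.14. Ffar4, a receptor for long-chain fatty acids, rose by 2.15, 1.14 and 1.03. Ffar2, a receptor for short-chain fatty acids that neutrophils also carry, rose by 1.68 at 72 h.

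Of 22 receptors for the hormones and serotonin, 1, 1 and 2 were called higher and 3, 3 and 2 lower, with medians of 0.19, 0.06 and -0.10. Ntsr1, a receptor for neurotensin, was not well above background at 12 and 72 h, at least 1.70-fold and 1.90-fold lower than sham (limma adjusted p = 0.0321 and 0.00220). Glp2r, the receptor for glucagon-like peptide 2, fell by 1.38 at 72 h on its brightest probe, and its other probe, at -0.57, was not called. Htr2b fell by 2.26 at 3 h on the brightest of its 2 probes, and Htr7 rose by 1.37, 1.38 and 2.06 on the brightest of its 3. Of 4 genes that break down the peptides or take up or break down serotonin, 0 were called higher at any time and 0, 1 and 2 lower, with medians of -0.21, -0.19 and -0.82. Maoa, which degrades serotonin, fell by 1.03 at 12 h and by 1.83 at 72 h, and Slc6a4, the serotonin transporter, fell by 1.27 at 72 h. Slc6a4, Ddc, Ptprn and Ntsr1 had 2 probes each and Tac1 had 4, and the values given are those of the brightest. With a slide block, the 72 h calls of Ffar2 (1.66, limma adjusted p = 0.00978) and Htr7 (2.11, limma adjusted p = 0.0271) were kept. Those of Pax6, Ddc, Vgf, Rab3b, Ptprn, Ffar4, Ntsr1, Glp2r, Maoa and Slc6a4 were lost, at limma adjusted p values from 0.0606 for Maoa to 0.500 for Vgf. At 12 h that block ended the calls of Ntsr1 and Maoa and kept those of Pax6, Ddc, Vgf, Ffar4 and Htr7.

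Markers of other cells moved with the times, and their part in the results above was not tested. Of 14 epithelial markers, 1, 0 and 0 were called higher and 0, 0 and 1 lower at 3, 12 and 72 h, with medians of 0.49, 0.23 and -0.50. Log2 of their summed level was 10.77, 10.91 and 10.94 in sham and 11.37, 11.26 and 11.27 at 3 h. It was 11.05, 11.15 and 10.91 at 12 h and 10.05, 10.46 and 10.51 at 72 h. The epithelial sum was thus highest at 3 h and lowest at 72 h, with no overlap of either group with sham. Krt8 had the highest mean level of them, and no epithelial marker was below background in all groups.

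Of 14 markers of enteric neurons and glia, 0, 0 and 1 were called higher and 0, 2 and 1 lower, with medians of -0.66, -0.63 and -0.13. Log2 of their summed level was 5.24, 5.04 and 5.10 in the sham arrays, 4.84, 4.91 and 4.97 in those of 3 h, 4.81, 5.17 and 5.14 in those of 12 h and 4.53, 4.89 and 4.93 in those of 72 h, with Snap25 the brightest. Of 11 mast cell markers, 2, 1 and 5 were called higher and 0 lower at any time, with medians of 0.63, 0.46 and 1.14. Log2 of the mast cell sum was 1.46, 1.22 and 1.40 in the sham arrays, 2.82, 3.997 and 3.73 in those of 3 h, 5.19, 4.60 and 4.63 in those of 12 h and 4.29, 3.76 and 4.18 in those of 72 h. Hdc, the brightest of them over the 12 arrays, is also made by neutrophils, and its changes were 6.73, 8.56 and 7.39. In each of these lists, no marker was below background in all groups.

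Of 8 smooth muscle markers, 0 were called higher and 1, 8 and 7 lower, with medians of -0.79, -1.48 and -1.47. With Tagln the brightest, log2 of their summed level was 9.30, 9.28 and 9.19 in the sham arrays, 8.30, 8.58 and 8.56 in those of 3 h, 7.55, 7.62 and 8.20 in those of 12 h and 7.74, 7.999 and 8.14 in those of 72 h. Of 11 neutrophil markers, 7, 9 and 7 were called higher and 0 lower, with medians of 3.59, 4.96 and 2.66. Csf3r had the highest mean level over the 12 arrays, and in the cauterized groups S100a9 did, with means of 8.14, 8.93 and 8.15. Log2 of the neutrophil sum was 6.51, 6.34 and 6.53 in the sham arrays, 8.49, 9.23 and 8.95 in those of 3 h, 9.75, 9.70 and 9.68 in those of 12 h and 8.79, 8.45 and 9.31 in those of 72 h. Of 8 macrophage markers, 0, 2 and 6 were called higher and 2, 1 and 0 lower, with medians of -0.03, -0.27 and 1.61. Of 7 mesothelial markers, 1, 1 and 3 were called higher and 2, 2 and 0 lower, with medians of 0.02, 0.03 and 0.88. Among 6 T cell markers and 7 fat cell markers limma called 0 in either direction at any time. The T cell medians were -0.17, 0.17 and -0.34 and the fat cell medians -3.23, -2.80 and 0.04. Of 9 pancreatic markers, 1 was called higher at 3 h, G6pc2, which was not well above background on any array, and 0 were called otherwise, with medians of 0.31, 0.01 and -0.11.

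Scaling set how many genes of the whole array lay on each side. At 3 h limma called 1209 genes higher and 1523 lower, against 1034 and 1969 with the percentile over probes above background, 631 and 207 with normexp, and 678 and 4150 with epithelial centring. At 12 h it called 1521 higher and 1839 lower, against 826 and 502 with normexp and 1226 and 2418 with epithelial centring. At 72 h it called 1687 higher and 1595 lower, against 1851 and 1098 with quantile normalization, 870 and 388 with normexp, and 3455 and 423 with epithelial centring. Between times, epithelial centring turned 702 higher and 580 lower from 3 h to 12 h into 1130 and 218, and 1604 and 1184 from 12 h to 72 h into 6023 and 316. From 3 h to 72 h limma called 2296 higher and 2043 lower, against 2686 and 1437 with the percentile over probes above background and 10753 and 287 with epithelial centring.

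The median over all genes moved from 0.08 to -0.03 at 3 h with the percentile over probes above background, and from -0.14 to -0.02 at 72 h with quantile normalization. Quantile normalization also moved it to -0.01 in each comparison between times, from -0.12, -0.14 and -0.26, and the percentile over probes above background moved the last of these to -0.13. Epithelial centring moved it to -0.35, -0.17 and 0.37 at 3, 12 and 72 h, so that values of the 10 genes under it are shifted with all others. Under quantile normalization, the percentile over probes above background and normexp, Nts was called lower at 72 h each time, and 0 of the 10 genes were called at 3 h.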

How the data were processed

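RNA of 12 mouse ceca was measured, 3 per group. Sample labels gave the groups, and the methods gave the time of the sham group. The authors' scanner files, made with Agilent Feature Extraction 11.5.1.1, hold for every spot an intensity with the background removed and no scaling across arrays. A log2 table scaled by the authors in GeneSpring to the 75th percentile was deposited too, with 56743 rows, and on the probes in both it correlated with the values used here at 0.999996 after centring. Here spots marked as outliers (53 to 152 per array) were dropped, log2 was taken of the other non-control intensities, spots of a probe were averaged, and from each array its own 75th percentile was taken away. This left 56605 probes of 37074 genes, of which 11876 had more than 1 probe.

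The model was 1 mean for each group in limma 3.58.1 (R 4.3.3, with version 1.17.8 of data.table), by lmFit, contrasts.fit and eBayes, with p adjusted by Benjamini-Hochberg across all probes. A call needed an adjusted p below 0.05 and more than a 2-fold difference. A gene stood by its probe with the highest mean. Where a group had no array with a probe well above background, its fold change was given as a bound. Such a bound is for the scale used here and need not hold under another scaling or a slide block. Tables and figures were made in Python 3.11.15 with pandas 2.3.3, numpy 2.4.6 and matplotlib 3.10.9. The fit was tested on simulated data with independent noise at each probe and no effect of slide. That test says nothing about effects of slide.

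The members and lists were chosen with earlier results of these data known. The 6 pathway lists are transcription factors, other gut hormones, processing and granules, sensors, receptors, and clearance, and the 10 cell type lists are epithelium, neurons and glia, mast cells, smooth muscle, neutrophils, macrophages, T cells, mesothelium, fat cells and pancreas. Named were all 10 members, up to 5 called genes of each pathway list and up to 3 of each cell type list with the largest change, the 5 genes most like each member, and genes that check sex, and the text names some of these. Trac, a T cell marker, had no probe of that name. Alternatives for scaling were quantile normalization, the percentile over probes above background, normexp (offset 50) and the table of the authors. Others were dropping dim probes, keeping outlier spots, a slide block, a replicate block, trend and robust in eBayes, fitting the compared groups alone, the methods' t-test paired by replicate number (named there for a pair of groups, with another test for more groups, and not for the arrays), averaging a gene's probes, no fold change threshold, values within a slide, and leaving out each array in turn. Centring on the epithelial markers was chosen after seeing the data. The scanner files gave probe positions in mm9, a build of which no genome was used here.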

Additional observations from a re-analysis of the deposited data

Results flagged for a closer look

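Some changes differed between times by limma's test of the difference itself, at a fold change above 2. Between 3 h and 12 h, Insl5 differed by -1.01, with its 12 h arrays at -4.02, -4.01 and -3.21, and this call was lost without any 1 of 8 arrays, with normexp, with a replicate block, with epithelial centring and under other settings. Nts differed by -1.61 between 3 h and 72 h, which lie on different slides, and with a slide block by -1.26 at a limma adjusted p of 0.0905, which is no call. Tph1, on its probe A_55_P2934423, differed by -1.04 between 3 h and 12 h, a call lost with a slide block, at -0.95. Between 3 h and 72 h that probe had a fitted difference of -1.84, but the 72 h arrays were not well above background. This leaves a bound of at least 3.16-fold lower, on the scale used here only. The fitted difference fell short of that bound with normexp, at -0.57, and with epithelial centring, at -0.90, neither of them called.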

How the results depend on the processing

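Across the hormones and markers, 1788 values of 72 results were set beside the values as reported. Of these, 1706 kept their sign and their call or lack of a call, or changed sign by less than the spread between arrays. Of the rest 35 lost a call, 12 gained one, 12 changed sign with an adjusted p below 0.05 before or after, and 23 changed sign by more than that spread with no such p. The 12 sign changes with such a p all came from epithelial centring, chosen after seeing the data, which shifts all genes. A change of sign at any p was seen in 94. Most of the 72 results were not called, and a moved adjusted p without a call counts as kept. Calls could be lost only by Nts at 72 h and from 3 h to 72 h, and Insl5 from 3 h to 12 h. The same holds for the Tph1 probe A_55_P2934423 at 3 h, from 3 h to 12 h and from 3 h to 72 h. The 1706 therefore say little about how firm the calls are. For the other named genes, 3066 values of 123 results were compared, of which 202 lost a call, 34 gained one, 2 changed sign with such a p and 17 otherwise by more than the spread. The cause was not tested. The small number of arrays limits the precision of all these values.

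Without a fold change threshold, 2 genes passed at 3 h, 1 at 12 h, 3 at 72 h, 3 from 3 h to 12 h, 1 from 12 h to 72 h and 6 from 3 h to 72 h. At 12 h, 1 gene (Insl5) was called with the percentile over probes above background, with slide as a block and with epithelial centring. By the methods' t-test 0 were called at 72 h, from 3 h to 12 h and from 3 h to 72 h. The call from 3 h to 12 h was also lost, leaving 0, with the percentile over probes above background, with normexp and with only the groups compared. With an array left out, the count ranged from 0 to 1 at 12 h, from 1 to 2 at 72 h, from 0 to 1 from 3 h to 12 h and from 1 to 2 from 3 h to 72 h. With slide as a block the count at 72 h and from 3 h to 72 h stayed 1, but the gene was Insl5 and not Nts. Between the slides that block rests on replicate 3 of 12 h alone. Over all genes the fit with that block called 591 higher and 561 lower at 72 h, against 1687 and 1595, and 584 and 568 from 3 h to 72 h, against 2296 and 2043.

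With the replicate block, 0 were called from 3 h to 12 h, where Insl5 had a limma adjusted p of 0.0557, and it changed no other count of calls. Arrays with the same number did not deviate together, with correlations from -0.16 to 0.09 in 18 pairs, so the samples share only a number.

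Centring on the epithelial markers, chosen after seeing the data, left 0 genes called at 72 h, from 3 h to 12 h and from 3 h to 72 h, and 1 from 12 h to 72 h. It turned the median at 3 h to -0.19 and at 72 h to 0.34. From 3 h to 72 h it turned Chga to 0.11, Chgb to 0.68, Pyy to 0.75, Gcg to 0.10 (0.36 on its other probe), Cck to 0.30, Insl5 to 0.0195, Sst to 0.59, Tph1 to 0.23 and Neurod1 to 0.75. From 12 h to 72 h it turned Chga to 0.43, Neurod1 to 0.63, Cck to 0.46 and the other probe of Gcg to 0.29. The whole array moved with this centring, with a median over all genes of 0.68 from 3 h to 72 h in place of -0.26. At 72 h Isl1 and Nkx2-2 were at 0.74 and 0.12, and at -0.13 and -0.21 with normexp, but on their brightest probes Isl1 was above background on 0 sham arrays and Nkx2-2 on 0 arrays of 72 h, so these signs are not read.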
